A study of Mus musculus with 6 samples.

Results

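The genes of the proteasome subunits were examined in RNA-seq libraries of mouse CD4 T cells. Members were the protein-coding genes whose symbols start with Psma, Psmb, Psmc, Psmd, Psme or Psmg followed by a digit, and 49 of the 56748 genes in the count table met this rule. By role they were 8 alpha subunits of the core, 7 constitutive beta subunits, 3 immunoproteasome subunits, 1 thymoproteasome subunit, 6 ATPases, 11 other subunits of the regulatory particle, 5 activators and 7 assembly chaperones. The remaining member, Psmc3ip, matches by symbol and encodes a recombination cofactor that is not a proteasome subunit. A further 4 matching symbols belong to genes that are not protein coding and were not members.

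The study asked what lowering the glycolytic enzyme PGAM does to T cells grown towards a regulatory fate. Naïve CD4 T cells came from the spleens and lymph nodes of wild-type C57BL/6 mice aged 6 to 10 weeks and were isolated by negative selection, although the source named in the labels is splenocytes. They were cultured for 3 days on plate-bound anti-CD3 with soluble anti-CD28, IL-2, TGF-β, anti-IFNγ and anti-IL-4. From the start the cultures held 10 μM of an antisense oligonucleotide (ASO), either a scrambled sequence or one directed at Pgam, with 3 libraries of each kind. RNA with a poly(A) tail was taken from unsorted cells, so cells that had and had not become regulatory T cells contributed together. The sources call the libraries biological replicates but do not say whether these came from separate animals, so each p measures only the spread between these libraries. In such bulk samples, fewer cells of a type and less RNA per cell cannot be told apart.

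The proteasome is a barrel of stacked alpha and beta rings that cuts proteins into peptides, capped by a regulatory particle that recognises ubiquitin chains and unfolds the substrate with a ring of ATPases. Interferon-γ induces immunoproteasome subunits, which take the places of the catalytic beta subunits and change the peptides offered on MHC class I molecules, and lymphocytes carry them without infection. Activated T cells make and turn over protein at a high rate, and the transcription factor encoded by Nfe2l1 is known to raise proteasome genes together when proteasome activity is short.

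The libraries labelled Scramble held 17588755, 18032805 and 16231127 counts in replicates 1, 2 and 3. Those labelled ASO held 16589933, 15860476 and 16803881 counts. Among these, 14936 genes had enough counts to be tested, and 28236 genes were at 0 in every library. Levels are given in CPM, counts scaled to an equal library depth after TMM normalization, and values are listed in the order of replicates 1, 2 and 3.

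The labels were checked first. The study describes the ASO as directed at Pgam isoforms. Pgam1, the main PGAM gene, was at 600, 478 and 707 CPM in the libraries labelled Scramble and at 658, 661 and 707 CPM in those labelled ASO. The groups overlapped, and the transcript was not lower in the libraries labelled ASO (log2 fold change 0.18, SE 0.126, 95% interval -0.0976 to 0.464, adjusted p 0.331 by edgeR quasi-likelihood). For Pgam1 the value ran from 0.05 to 0.33 when each library was left out. Of its transcript sequence, 37.1% was shared with other genes over stretches of 31 bases, so its reads cannot be fully told apart from theirs. With the counts of sharing genes added, its log2 fold change was again 0.18 (adjusted p 0.331 by edgeR). Pgam2, the muscle form, was at 5.23, 6.75 and 2.85 CPM against 2.98, 2.69 and 2.60 CPM, also overlapping (log2 fold change -0.84, SE 0.313, adjusted p 0.0854). The study reported lower PGAM1 protein with the Pgam ASO by flow cytometry, which the count table does not hold. The check here therefore covers RNA only, and the groups are called by their labels.

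Foxp3, which encodes the defining transcription factor of regulatory T cells, was at 282, 371 and 222 CPM in the libraries labelled Scramble and at 89.7, 109 and 131 CPM in those labelled ASO. All 3 libraries labelled ASO lay below all 3 labelled Scramble, with a log2 fold change of -1.41 (SE 0.201, adjusted p 0.00567). By flow cytometry of CD25 and FOXP3, the study also reported less regulatory T cell differentiation with the Pgam ASO, the same direction as the labels give here. Of the other 3 genes in the regulatory T cell list, Ikzf2 fell (log2 fold change -0.57, adjusted p 0.0484), Il2ra rose (0.52, adjusted p 0.0185) and Ctla4 had a value of -0.28 (adjusted p 0.0575). DESeq2 also called Ctla4 lower (adjusted p 0.0367), so by DESeq2 1 gene of the list was higher and 3 were lower. Of all tested genes, DESeq2 called 10.4% higher and 11.1% lower.

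Taken as a whole, the members held 0.576%, 0.511% and 0.619% of all counts in the libraries labelled Scramble and 0.732%, 0.708% and 0.650% in those labelled ASO. Their summed level was 5699, 4981 and 6222 CPM in the first group and 7539, 7201 and 6465 CPM in the second. All 3 libraries labelled ASO stood above all 3 labelled Scramble, but ASO 3 and Scramble 3 lay close to each other. The group means were 5634 ± 624 CPM and 7068 ± 549 CPM (SD, n = 3), a difference of 25.5%. The order of the libraries by summed level, from ASO 1 at the top through ASO 2, ASO 3, Scramble 3 and Scramble 1 to Scramble 2, was the reverse of their order by Foxp3. This order was not particular to the members, since the summed chaperonin genes followed it too and the summed CD4 T cell markers ran in reverse.

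Of the 49 members, 47 passed the filter on low counts. The lowest count of a tested member in a library was 157. The exceptions were Psma8, an alpha subunit of the testis, with 6, 4 and 2 counts in the libraries labelled Scramble and 4, 5 and 14 in those labelled ASO, and Psmb11, the beta subunit of the thymic cortex. Psmb11 had 3 counts in Scramble 3 and 0 in the other 5 libraries, where a count of 0 allows up to 3 counts for counting error only.

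With edgeR, 20 of the 47 tested members were higher in the libraries labelled ASO at an adjusted p under 0.05, or 42.6%, and 0 were lower. Over all tested genes, 1199 were higher, or 8.03%, and 1366 were lower, or 9.15%. At an unadjusted p under 0.05, 37 members were higher and 0 were lower, beside 17.2% of all tested genes higher and 17.7% lower. DESeq2 called 29 members higher and 0 lower, against 1554 higher (10.4%) and 1659 lower (11.1%) of all tested genes, and limma-voom called 20 members higher and 0 lower, against 7.99% and 8.94% of all tested genes. The 20 calls rested on small margins, since their adjusted p ran from 0.0227 to 0.0487 and 32 members had an adjusted p under 0.1.

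The count depended on the model and on single libraries. With replicate number as a block in edgeR it was 0, with a lowest adjusted p of 0.0514, while 3.21% of all genes were called higher. At an unadjusted p under 0.05 the block left 32 members higher, beside 14.3% of all genes. Without Scramble 1, without ASO 1 or without ASO 2 the count was 0 by edgeR, where 1.45%, 2.10% and 1.03% of all genes were called higher. At an unadjusted p under 0.05 these omissions left 31, 27 and 26 members higher, beside 12.5%, 12% and 11.5% of all genes. Without Scramble 2 the count was 3, with 3.25% of all genes called higher. Without Scramble 3 it was 33, with 11% of all genes, and without ASO 3 it was 29, with 10.2%. Over the 6 omissions the median log2 fold change of the tested members stayed between 0.25 and 0.42, so the size of the difference moved less than the number of calls.

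The direction was shared across the module. A positive log2 fold change was found for 44 of the 47 tested members, beside 7378 of all 14936 tested genes. The 3 members with a negative value, Psme1, Psme2b and Psme4, are all activators. The median was 0.34, or 26.4%, beside -0.0061 for all tested genes, and the middle of the distribution was narrow, with quartiles of 0.26 and 0.39. All 3 libraries labelled ASO were above all 3 labelled Scramble for 31 of the 47 members, where 19.6% of all tested genes showed this, and they were below for 0, where 19.8% of all genes did. The other 16 members overlapped between the groups.

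**Figure D1:**
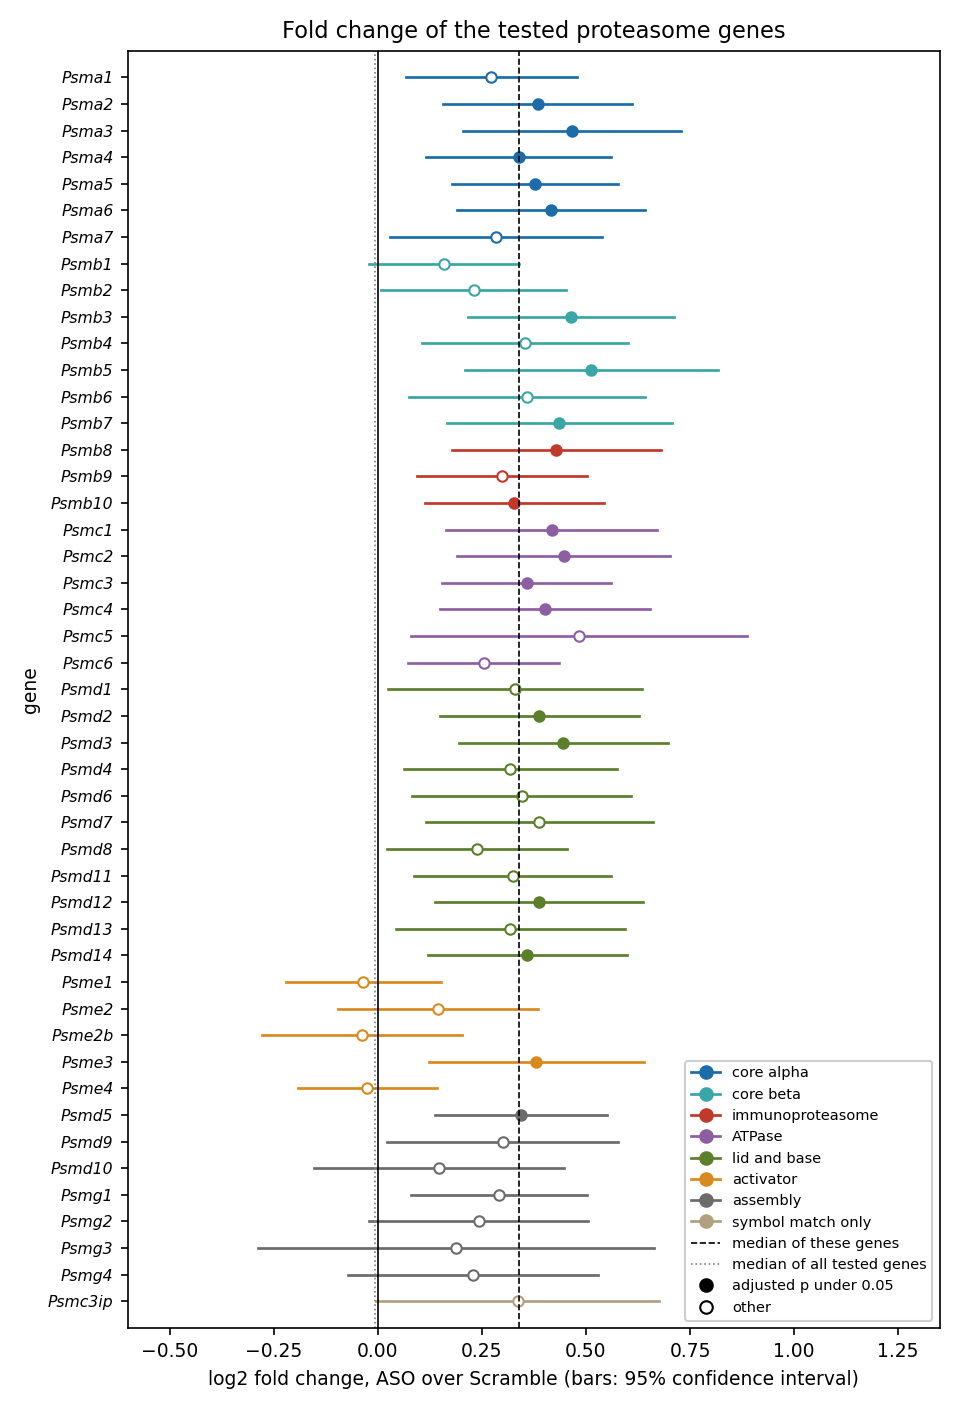
Log2 fold change of each tested member, libraries labelled ASO against those labelled Scramble (edgeR), by role, with 95% intervals; filled points have an adjusted p under 0.05, and the dashed and dotted lines mark the medians of the members and of all tested genes. Most roles sit near the members' median of 0.34, while 4 of the 5 activators sit nearer 0.

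Libraries within a group were not alike. Of the 47 tested members, 32 had their highest level in ASO 1, 9 in ASO 2, 2 in ASO 3, 3 in Scramble 3 and 1 in Scramble 1. The lowest level was in Scramble 2 for 40 members and in Scramble 1 for 5. Relative to the mean log2 level of the libraries labelled Scramble, the median member stood at 0.02, -0.17 and 0.16 in those libraries and at 0.45, 0.37 and 0.20 in the libraries labelled ASO. ASO 3 thus differed from Scramble 3 by little, and ASO 1 and Scramble 2 were the extremes.

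**Figure D2:**
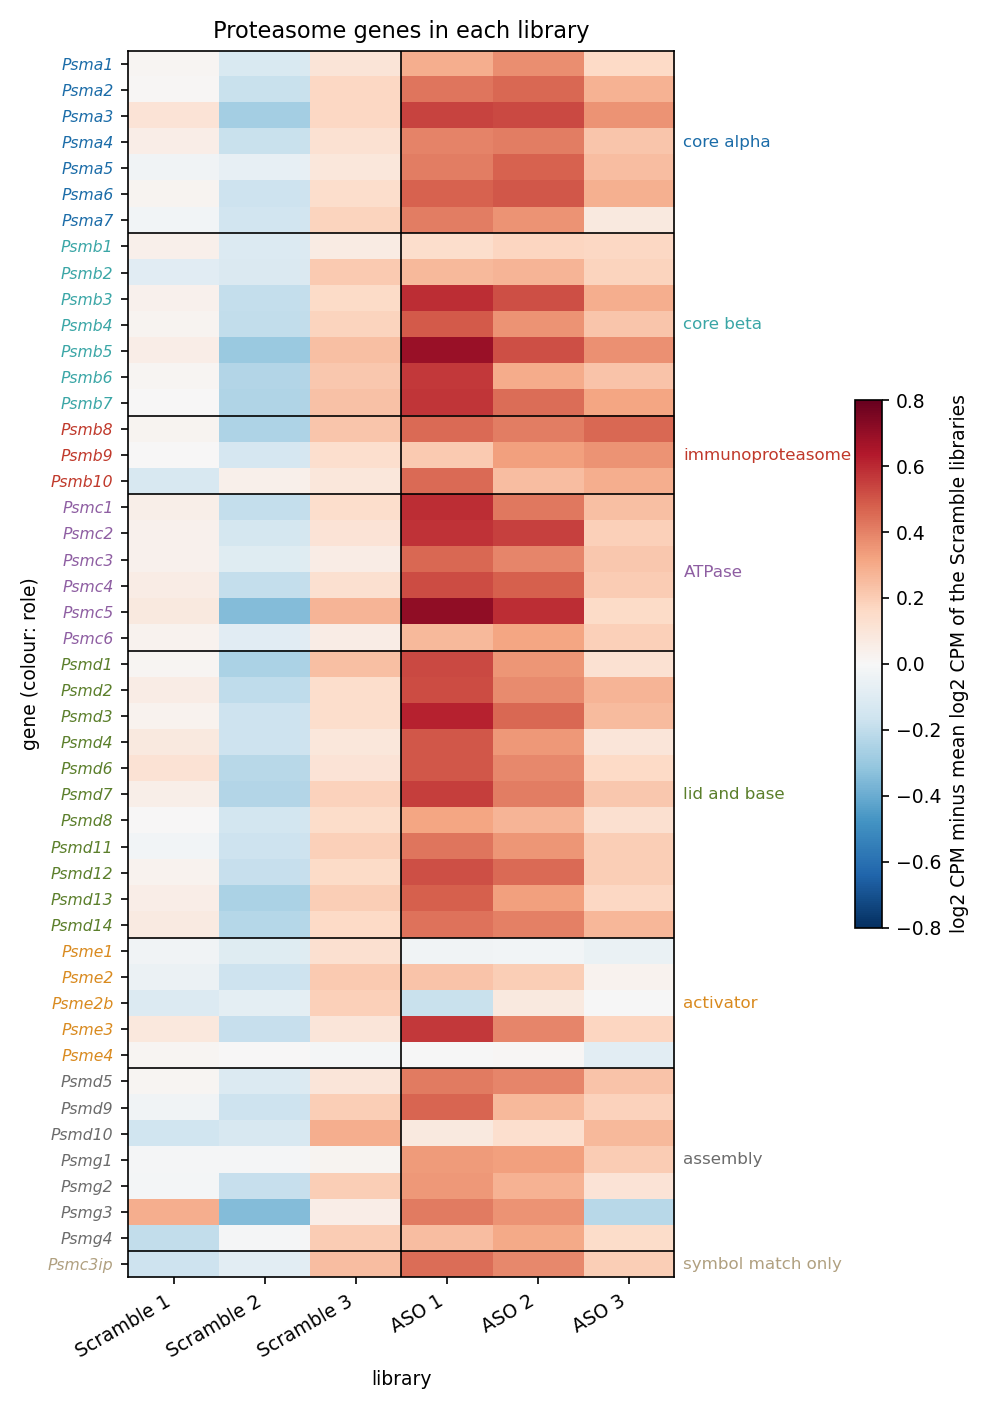
Log2 CPM of the 47 tested members in each of the 6 libraries, minus the mean log2 CPM of the libraries labelled Scramble, with members grouped by role. Scramble 2 is the lowest column and ASO 1 the highest for most members, and the medians of the 6 columns run from -0.17 to 0.45.

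Shares of the counts that went to other RNAs were compared across the same libraries. Mitochondrially encoded genes took 1.95%, 2.12% and 1.93% of the counts in the libraries labelled Scramble and 1.24%, 1.44% and 1.32% in those labelled ASO, with the groups apart. Genes of ribosomal proteins took 6.84%, 6.66% and 7.37% against 6.998%, 6.97% and 6.85%, which overlapped. The part of the mitochondrial share in the result was not tested. With the ribosomal and mitochondrial genes left out, 21 members were higher and the median was 0.34.

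Markers of cell types were read from fixed lists. The 8 CD4 T cell genes summed to 3020.4, 3272 and 2853 CPM in the libraries labelled Scramble and to 2485, 2641 and 2779 CPM in those labelled ASO. Cd4 was the most abundant of them. For 7 of the 8, all 3 libraries labelled ASO lay below all 3 labelled Scramble, as for 19.8% of all tested genes. Trac was the only one called by edgeR (log2 fold change -0.30, adjusted p 0.0416), where DESeq2 called 3 lower. Over all tested genes edgeR called 9.15% lower and DESeq2 11.1%. Of the 2 CD8 genes, Cd8a rose from 2.48, 3.08 and 2.23 to 7.02, 3.66 and 6.27 CPM (log2 fold change 1.12, adjusted p 0.0286), while their sum, most of it from Cd8b1, overlapped at 11.3, 13.5 and 10.8 against 14.6, 10.9 and 15.7 CPM.

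Markers of other cell types were low. The 5 B cell genes, with Cd79a most abundant, summed to 9.28, 11.6 and 6.63 CPM against 9.75, 8.92 and 7.87 CPM. The 6 myeloid genes, mostly Cd68, summed to 8.10, 8.80 and 8.18 CPM in the libraries labelled Scramble and to 6.15, 5.77 and 7.51 CPM in those labelled ASO, and the 2 plasma cell genes, mostly Sdc1, to 6.02, 2.21 and 4.96 against 8.14, 4.75 and 3.67 CPM.

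Dendritic cell genes (4 genes, Flt3 highest, Siglech at 0 throughout) summed to 1.07, 0.648 and 0.867 against 1.12, 1.28 and 1.18 CPM. NK cell genes (3 genes, Klre1 highest, Klrb1c at 0) gave 0.225, 0.594 and 0.124 against 0.186, 0.192 and 0.296 CPM. Erythroid genes (5 genes, Hba-a1 highest, Hba-a2 at 0) gave 1.3505, 1.08 and 0.929 against 0.932, 1.15 and 1.78 CPM. None of the B, myeloid, plasma or erythroid genes that could be tested passed edgeR's threshold. At an unadjusted p under 0.05 there were 2, 1, 0 and 0 of them, beside 17.2% of all tested genes higher and 17.7% lower. DESeq2 called 1 B cell gene higher and 1 lower, beside 10.4% and 11.1% of all tested genes. The dendritic and NK genes were too low to test. The part of these cell types in the members' result was not tested.

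The alpha subunits form the outer rings of the core and its gate. Psma3, which had the highest fold change of this group, was at 103, 79.1 and 107 CPM in the libraries labelled Scramble and at 139, 138 and 123 CPM in those labelled ASO. The groups were apart, with Scramble 2 far below the rest (log2 fold change 0.47, SE 0.118, adjusted p 0.0271). Psma1, with the lowest fold change, was at 157, 142 and 167 CPM against 189, 201 and 173 CPM, also apart (0.27, SE 0.0923, adjusted p 0.0652). Psma7, the alpha subunit with the most RNA per kilobase of transcript, was at 152, 139 and 175 CPM against 205, 199 and 163 CPM, where ASO 3 fell within the range of the other group (0.28, SE 0.114, adjusted p 0.107).

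Beside 8.03% of all tested genes, 5 of the 7 alpha subunits tested rose. Besides Psma3 these were Psma2 (log2 fold change 0.38, adjusted p 0.0319), Psma4 (0.34, adjusted p 0.0440), Psma5 (0.38, adjusted p 0.0227) and Psma6 (0.42, adjusted p 0.0245), each with the groups apart. The summed level of the alpha subunits differed by 27.9% between the group means.

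Among the constitutive beta subunits, Psmb5, Psmb6 and Psmb7 carry the catalytic sites, which cut after hydrophobic, acidic and basic residues in that order. Psmb5 (ENSMUSG00000022193, chr14:54614119-54618022, minus strand, GRCm38) was at 91.9, 72.2 and 105 CPM in the libraries labelled Scramble and at 143, 126 and 114 CPM in those labelled ASO. It had the highest fold change of all members, and the groups were apart (log2 fold change 0.51, 95% interval 0.21 to 0.82, SE 0.136, adjusted p 0.0319), a rise of 42.7%. For this gene 71.7% of the transcript was shared with other genes, chiefly with the processed pseudogene Gm3375, which shares 59.8% of it.

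Psmb6 (chr11:70525367-70527858, plus strand) was at 116, 97.0 and 133 CPM against 169, 140.1 and 134 CPM. Scramble 3 and ASO 3 all but met (log2 fold change 0.36, SE 0.128, adjusted p 0.0760). Psmb7 (chr2:38588036-38644087, minus strand) was at 89.5, 75.6 and 105 CPM against 133, 122 and 111 CPM, and it rose with the groups apart (0.44, SE 0.122, adjusted p 0.0369).

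The beta subunits without a catalytic site ranged more widely. Psmb1 was at 211, 190.1 and 214 CPM in the libraries labelled Scramble and at 226, 231 and 230.1 CPM in those labelled ASO, the lowest fold change of the group, with no overlap (log2 fold change 0.16, SE 0.0806, adjusted p 0.190). Psmb4, the beta subunit with the most RNA per kilobase, was at 197, 169 and 219 CPM against 273, 249 and 226 CPM, apart by a narrow gap between Scramble 3 and ASO 3 (0.35, SE 0.111, adjusted p 0.0528). Psmb3 rose (0.46, adjusted p 0.0235). In all, 3 of 7 constitutive beta subunits rose, beside 8.03% of all tested genes.

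The immunoproteasome subunits Psmb8, Psmb9 and Psmb10 take the places of Psmb5, Psmb6 and Psmb7. Psmb8 (chr17:34197721-34201454, plus strand) was at 279, 231 and 321 CPM in the libraries labelled Scramble and at 377, 364 and 377 CPM in those labelled ASO. The libraries labelled ASO were close to each other and above all of the other group (log2 fold change 0.43, SE 0.113, adjusted p 0.0307). Psmb9 (chr17:34181987-34187764, minus strand) was at 105, 95.3 and 115 CPM against 121, 132 and 135 CPM, apart as well (0.30, SE 0.0921, adjusted p 0.0501). Psmb10 (chr8:105935735-105938444) was at 46.3, 52.0 and 53.8 CPM against 69.1, 60.1 and 61.8 CPM and rose with the groups apart (0.33, SE 0.0969, adjusted p 0.0436).

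The exchange of constitutive for induced subunits was followed as a ratio within each library, per kilobase of transcript and on the log2 scale. Psmb8 to Psmb5 was 0.74, 0.82 and 0.76 in the libraries labelled Scramble and 0.54, 0.67 and 0.87 in those labelled ASO. Psmb9 to Psmb6 was -0.90, -0.79 and -0.97 against -1.24, -0.85 and -0.75. Psmb10 to Psmb7 was -1.13, -0.72 and -1.14 against -1.12, -1.20 and -1.03. All 3 ratios overlapped between the groups, with ASO 1 the lowest library for the ratios of Psmb8 and Psmb9, and Scramble 2 the highest for that of Psmb10.

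The differences between group means were -0.08, -0.06 and -0.12 on the log2 scale. These signs were not stable. Without ASO 1 the difference was -0.005 for Psmb8 to Psmb5 and 0.08 for Psmb9 to Psmb6. Without Scramble 2 it was 0.02 for Psmb10 to Psmb7. Exact two-sided permutation tests over the 20 possible assignments of the 6 libraries gave p of 0.5, 0.9 and 0.7, each 0.9 after Benjamini-Hochberg adjustment over the 3 ratios, and the smallest p such a test can give with 3 against 3 libraries is 0.1, so none could pass 0.05. In each pair the induced subunit had the lower fold change in the fit over all genes, and whether the members of a pair differ or are alike was not shown.

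**Figure D3:**
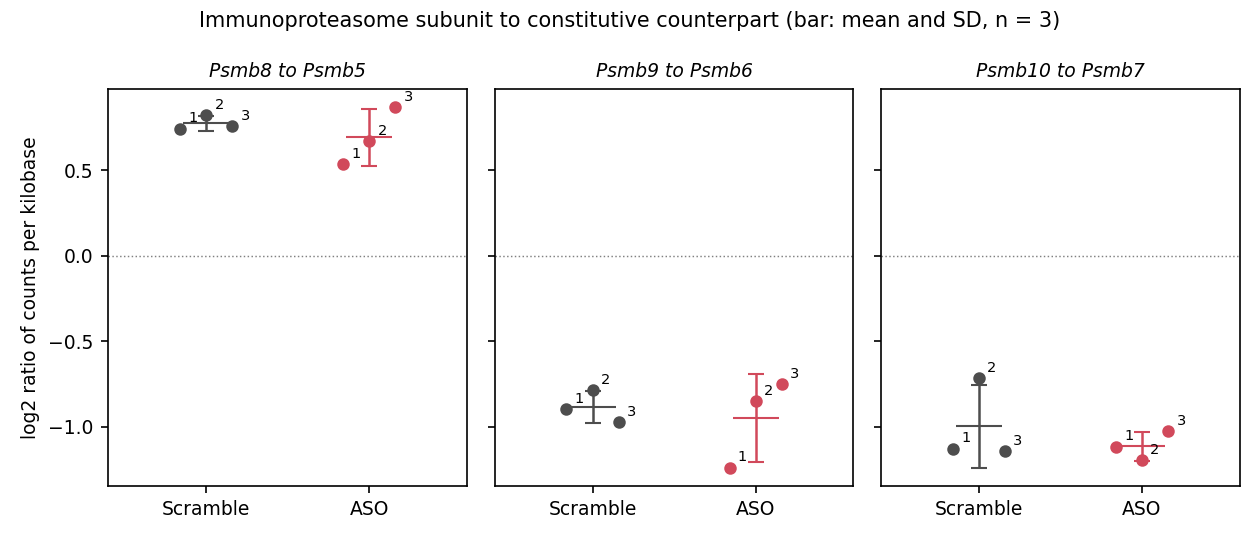
Log2 ratio of each immunoproteasome subunit to its constitutive counterpart, in counts per kilobase of transcript, for each of the 6 libraries with the group mean and SD (n = 3). The groups overlap in all 3 ratios.

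The ATPases form the ring that unfolds substrates and opens the gate of the core. Psmc5 had the highest fold change of the ring and the widest spread, at 112, 83.9 and 128 CPM in the libraries labelled Scramble and 174, 161 and 119 CPM in those labelled ASO. ASO 3 lay below Scramble 3, and the gene did not pass the threshold (log2 fold change 0.48, SE 0.178, adjusted p 0.0911). Psmc6, with the lowest fold change, was at 137, 126 and 140.3 CPM against 161, 168 and 153 CPM, with the groups apart (0.25, SE 0.0817, adjusted p 0.0561). Psmc1, the ATPase with the most RNA per kilobase, rose from 149.6, 127 and 159.6 CPM to 218, 194 and 171 CPM (0.42, SE 0.114, adjusted p 0.0342).

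In this ring 4 of 6 genes rose, beside 8.03% of all tested genes. Besides Psmc1, the ATPases that rose were Psmc2 (log2 fold change 0.45, adjusted p 0.0290), Psmc3 (0.36, adjusted p 0.0280) and Psmc4 (0.40, adjusted p 0.0383). The median of the ring was 0.41, the highest of the roles, and its summed level differed by 31.01% between the group means. Whether one role differed from another was not tested.

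The lid and the rest of the base recognise ubiquitin chains, remove them and hold the particle together. Psmd3, a scaffold of the lid with the highest fold change here, was at 187, 163 and 202 CPM in the libraries labelled Scramble and at 281, 252 and 219 CPM in those labelled ASO, with the groups apart (log2 fold change 0.45, SE 0.113, adjusted p 0.0275). Psmd8, a lid subunit with the lowest fold change and also the most RNA per kilobase of this group, was at 162, 146 and 179 CPM against 202, 196 and 177 CPM, where ASO 3 lay below Scramble 3 (0.24, SE 0.0968, adjusted p 0.110).

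Further genes of this group that rose were Psmd2, the large scaffold of the base (log2 fold change 0.39, adjusted p 0.0357), Psmd12 of the lid (0.39, adjusted p 0.0416) and Psmd14, the lid enzyme that removes ubiquitin chains (0.36, adjusted p 0.0458). All 11 genes had a positive value, 4 of them rose, and 8 had the groups apart. Of all tested genes, 8.03% rose and 19.6% had the libraries labelled ASO above all of the other group. Counting core, ATPases, lid and base together, 31 of 31 tested genes had a positive value and 16 rose. A positive value was found for 7378 of all 14936 tested genes.

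The activators are caps that open the core without ATP. Psme1, whose product forms an interferon-induced ring with that of Psme2, was at 238, 227 and 265 CPM in the libraries labelled Scramble and at 239, 239.9 and 235 CPM in those labelled ASO. The libraries labelled ASO all lay inside the range of the other group (log2 fold change -0.03, 95% interval -0.222 to 0.153, SE 0.0842, adjusted p 0.8). Psme2 was at 130.2, 120.0 and 155 CPM against 157, 154 and 137 CPM, with overlap (0.14, SE 0.108, adjusted p 0.371, and from 0.06 without Scramble 2 to 0.26 without Scramble 3).

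Psme2b, a near copy of Psme2, was at 58.1, 59.5 and 71.5 CPM against 55.5, 66.1 and 62.5 CPM (log2 fold change -0.04, SE 0.108, adjusted p 0.831). It shares 78.4% of its transcript with other genes, so reads of this pair cannot be told apart well, and with the counts of sharing genes added the value turned positive, at 0.09 (adjusted p 0.566). Psme4, which encodes a large activator of the nucleus, was at 111, 110.6 and 109 CPM against 109.9, 111 and 104 CPM. Its 6 libraries were close together (-0.03, 95% interval -0.193 to 0.141, SE 0.0752, adjusted p 0.834).

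Psme3 (chr11:101316213-101323537), which encodes the nuclear activator ring, had the highest fold change of the activators. It was at 229.9, 191 and 232 CPM in the libraries labelled Scramble and at 321, 285 and 245 CPM in those labelled ASO, and it rose with the groups apart (log2 fold change 0.38, SE 0.116, adjusted p 0.0487). With at least 10 counts required in every library it missed the threshold, at an adjusted p of 0.051, and whether it differed from the other activators was not tested. The upper bounds of the intervals of Psme1 and Psme4 lie below the members' median of 0.34. The signs of Psme1, Psme2b and Psme4 were not stable, since they turned positive without Scramble 3 for Psme1 (0.03) and Psme2b (0.06), without ASO 1 for Psme2b (0.03) and without ASO 3 for Psme4 (0.0085).

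Assembly chaperones help the core and the base to form and leave the finished particle. Psmg1, which with Psmg2 helps build the alpha ring, was at 27.7, 27.8 and 28.4 CPM in the libraries labelled Scramble and at 35.4, 35.1 and 32.2 CPM in those labelled ASO, with the groups apart (log2 fold change 0.29, SE 0.0952, adjusted p 0.0596). Psmg2, the most abundant per kilobase of these chaperones, was at 37.2, 33.1 and 43.2 CPM against 47.8, 45.7 and 40.7 CPM, with ASO 3 inside the other group (0.24, SE 0.118, adjusted p 0.173). The value of Psmg2 ran from 0.15 without Scramble 2 to 0.35 without Scramble 3. The other alpha-ring pair was low, and both overlapped.

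Psmg3 of that pair was at 13.3, 8.53 and 11.3 CPM against 14.5, 13.9 and 9.29 CPM (log2 fold change 0.19, SE 0.214, adjusted p 0.566), and its value ran from 0.03 without Scramble 2 to 0.37 without ASO 3. Its partner Psmg4 was at 13.6, 15.4 and 17.8 CPM against 18.4, 19.2 and 17.2 CPM (0.23, SE 0.135, adjusted p 0.258). The value of Psmg4 ran from 0.13 without Scramble 1 to 0.34 without Scramble 3. Psmd5, a chaperone of the base despite its symbol, was at 57.9, 53.1 and 61.4 CPM against 76.4, 75.3 and 67.3 CPM and was the only assembly gene that rose under edgeR and DESeq2 (0.34, SE 0.0929, adjusted p 0.0331). Psmd10, also of the base, had the lowest value, at 23.6, 24.1 and 32.2 CPM against 27.9, 28.9 and 31.7 CPM, with overlap (0.15, SE 0.135, adjusted p 0.473, and from 0.06 without Scramble 1 to 0.31 without Scramble 3).

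**Figure D4:**
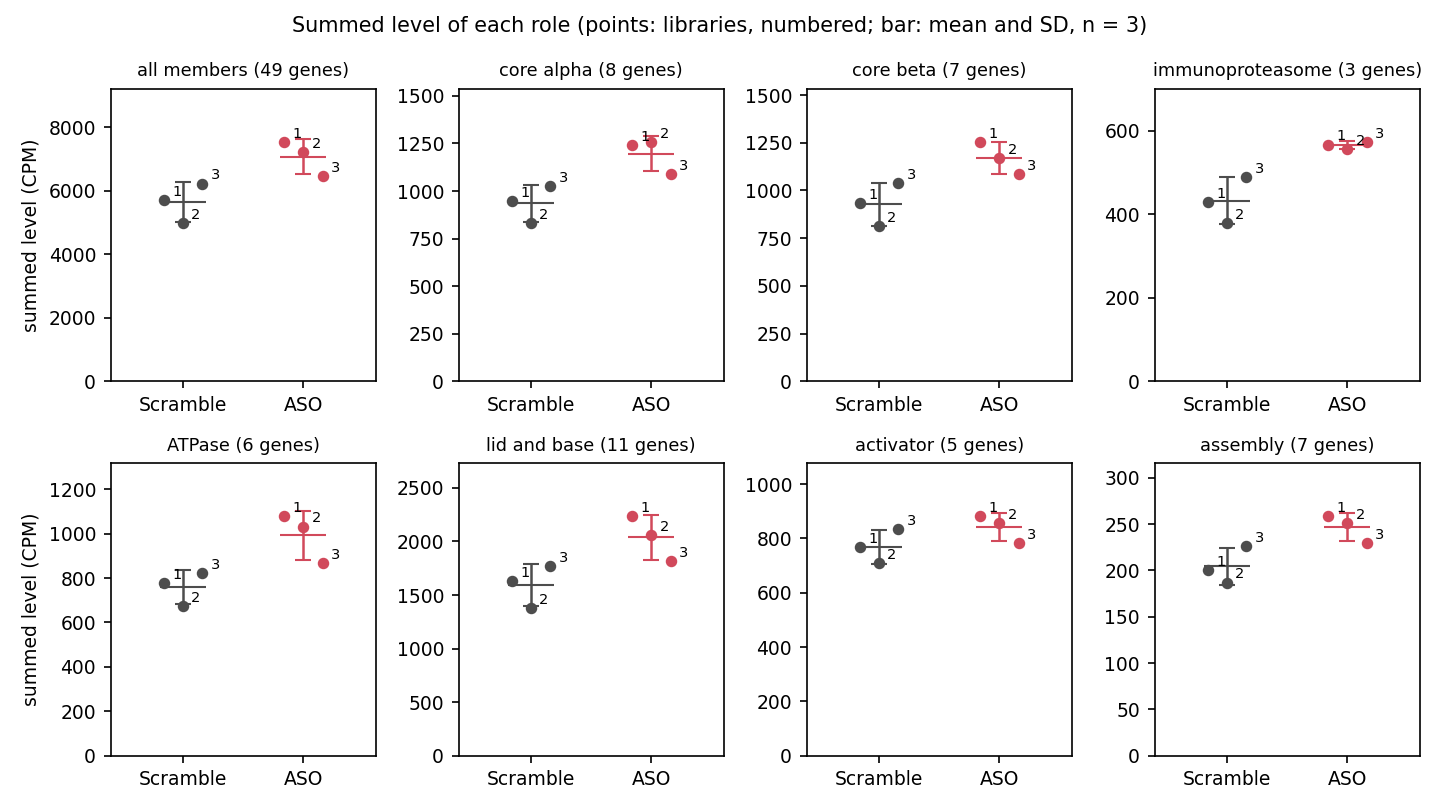
Summed level in CPM of all members and of each of 7 roles in the 6 libraries, with the mean and SD of each group (n = 3) and axes that start at 0. The difference between group means is smallest for the activators, at 9.16%, and largest for the ATPases, at 31.01%.

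By summed level the beta subunits differed by 26.3%, the immunoproteasome by 30.7%, the lid and base by 27.9%, the assembly chaperones by 20.6% and the activators by 9.16% between the group means. Psmc3ip, the member that is not a subunit, was at 10.8, 11.4 and 14.4 CPM in the libraries labelled Scramble and at 16.5, 15.8 and 13.8 CPM in those labelled ASO. Its groups overlapped (log2 fold change 0.34, SE 0.153, adjusted p 0.147), and its value equalled the members' median at 2 decimals.

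Levels of different genes were compared per kilobase of the longest coding transcript, as the mean of the libraries labelled Scramble. Psme1 had the highest level at 219 CPM per kilobase, followed by Psmb8 at 170.1, Psma7 at 169.9, Psmb4 at 165 and Psmb3 at 146. Immunoproteasome subunits were thus abundant in the libraries labelled Scramble as well, since Psmb8 stood above Psmb5, at 99.7, and Psmb9, at 77.7, equalled Psmb7. Psmb6 at 144 stood above Psmb9, and Psmb10 at 38.7 was the lowest of these catalytic subunits.

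Role medians per kilobase over the tested members were 119 for alpha subunits, 140.2 for constitutive beta subunits, 77.7 for the immunoproteasome, 80.4 for ATPases, 75.2 for lid and base and 81.8 for activators. Assembly chaperones, with a median of 18.6, and Psme4, at 17.0, were far lower. Choice of transcript length affects these levels, and the transcripts used by the cells were not measured.

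**Figure D5:**
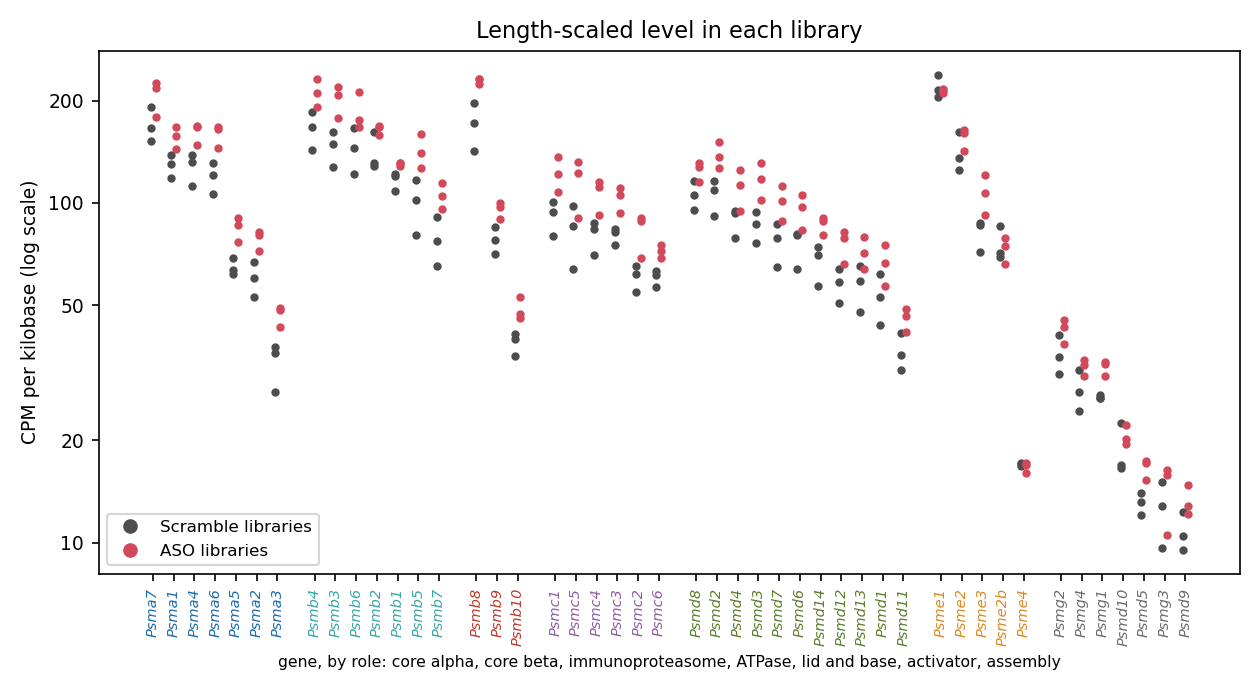
Level per kilobase of transcript (CPM per kilobase, log axis) of the tested members except Psmc3ip, with a point for each library, grouped by role. The assembly chaperones have the lowest median of the roles, at 18.6, and Psme1, Psmb8 and Psma7 have the highest means in the libraries labelled Scramble.

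Sequence shared with other genes bears on several members, since reads from such stretches can be assigned to either gene. At least 10% of the transcript was shared for 15 members, of which 10 were called, beside 20 called of all 47 tested members. Whether members with shared sequence were called more often was not tested. When the counts of sharing genes were added to each member, 20 members were again higher, 19 of them the same genes. Psmb7 then missed the threshold at an adjusted p of 0.0615, and Psmc3ip passed it at 0.0284. Both sums took in a separate protein-coding gene. Over all libraries Nek6 added 5280 counts to Psmb7, and Mlx added 4108 to Psmc3ip, which itself had 192 to 266 counts in each library. The summed value of Psmc3ip is thus not its own.

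Promoter sequences were searched because the members moved together. RefSeq (GRCm38.p6) gave 44 promoters for 41 members, and the 250 bases before each start were searched on both strands for 4 motifs, beside all 32851 promoters of the same length. The antioxidant response element core TGACNNNGC was in 5 of the 44, or 11.4%, beside 10.2% of all promoters. CCAAT was in 15, or 34.1%, beside 33.8%. The E-box CACGTG was in 4, or 9.09%, beside 6.02%, and the interferon response core GAAANNGAA in 3, or 6.82%, beside 7.13%.

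These shares were near those of all promoters. The 5 genes with TGACNNNGC were Psmb5, Psmb6, Psmc6, Psmd12 and Psmd9. Among genes with a promoter, CCAAT was in 5 of 7 alpha, 1 of 4 constitutive beta and 1 of 3 immunoproteasome subunits. It was also in 2 of 5 ATPases, 2 of 9 lid and base genes, 1 of 6 assembly chaperones and 1 of 5 activators, and in Psmb11 and Psmc3ip. Whether the roles differed in this was not tested. GAAANNGAA was in Psmb3, Psmd4 and Psmd9, and the searched windows of Psmb8, Psmb9 and Psmb10 did not hold these letters. A match of letters is a description and shows no binding.

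The promoters below were chosen because they hold matches, after the matches were seen, and they show each of the 4 motifs. Capitals mark the matched bases on either strand, and 0 bases lay in more than one match. The windows are Psmb5 at chr14:54618023-54618245 on the minus strand, and on the plus strand Psmb6 at chr11:70525107-70525356, Psmb3 at chr11:97703184-97703398 and Psme3 at chr11:101315963-101316212. Psmb5 and Psmb6 hold TGACNNNGC, Psmb3 holds GAAANNGAA and 2 CCAAT boxes, and Psme3 holds CACGTG and a CCAAT box. Bases inside the annotated genes were left off.
Psmb5: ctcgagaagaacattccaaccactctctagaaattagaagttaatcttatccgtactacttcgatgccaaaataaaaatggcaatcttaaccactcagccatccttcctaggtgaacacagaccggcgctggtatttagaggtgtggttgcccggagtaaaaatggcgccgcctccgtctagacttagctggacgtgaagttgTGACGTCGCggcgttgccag
Psmb6: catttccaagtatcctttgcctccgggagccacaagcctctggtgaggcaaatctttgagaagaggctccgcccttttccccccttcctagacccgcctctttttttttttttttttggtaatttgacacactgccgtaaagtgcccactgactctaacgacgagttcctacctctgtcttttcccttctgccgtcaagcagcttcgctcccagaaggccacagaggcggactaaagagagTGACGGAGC
Psmb3: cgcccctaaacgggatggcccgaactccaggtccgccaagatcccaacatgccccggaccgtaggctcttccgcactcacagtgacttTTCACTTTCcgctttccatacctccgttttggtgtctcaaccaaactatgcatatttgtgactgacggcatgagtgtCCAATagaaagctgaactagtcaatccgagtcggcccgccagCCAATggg
Psme3: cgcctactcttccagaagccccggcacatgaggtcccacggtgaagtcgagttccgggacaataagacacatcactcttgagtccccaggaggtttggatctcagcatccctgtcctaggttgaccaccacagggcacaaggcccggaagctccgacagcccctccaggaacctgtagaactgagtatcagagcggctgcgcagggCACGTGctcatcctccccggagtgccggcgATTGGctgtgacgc

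Position in the genome was scattered. The members lie on 16 chromosomes, with 10 on chromosome 11 and 6 on chromosome 14, and 5 pairs lie within 300 kb of each other. Psmb9 and Psmb8 are 9957 bases apart in the MHC region, on either side of the peptide transporter gene Tap1 (chr17:34187553-34197225), with Tap2 (chr17:34203527-34216321) beyond Psmb8. Psmb8 rose, while Tap1 had a log2 fold change of 0.06 (adjusted p 0.635) and Tap2 of 0.01 (adjusted p 0.962). When each library was left out, Tap1 ran from 0.0042 to 0.12 and Tap2 from -0.04 to 0.05. Psme1 and Psme2 are 5.9 kb apart on chromosome 14, and Psmb5 lies 3.4 kb from Psmb11, which was at or near 0.

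Genes that work with the proteasome were read from lists. Of 16 partners, 4 rose and 0 fell by edgeR, beside 8.03% and 9.15% of all tested genes. At an unadjusted p under 0.05, 8 were higher and 0 lower, beside 17.2% and 17.7%. DESeq2 called 7 higher and 0 lower, beside 10.4% and 11.1%. The partners' median log2 fold change was 0.22. Among those that rose were Adrm1, a ubiquitin receptor of the base (0.45, adjusted p 0.0340), the shuttle factor Rad23b (0.32, adjusted p 0.0450) and the thioredoxin-like Txnl1 (0.35, adjusted p 0.0333). Uchl5, a deubiquitinase that binds Adrm1, had the highest value, with overlap (0.47, adjusted p 0.0748), and Midn, a substrate adaptor, the lowest (-0.07, adjusted p 0.582).

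Several partners missed the threshold. Pomp, the maturation factor of the core, had a log2 fold change of 0.43 (adjusted p 0.0914), and Usp14, the other deubiquitinase of the particle, 0.37 (adjusted p 0.0507). Sem1, a small lid subunit whose symbol lies outside the rule, had 0.19 (adjusted p 0.215), and the inhibitor Psmf1 had 0.16 (adjusted p 0.232).

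Of 10 genes tied to the transcription of proteasome genes, 1 rose and 0 fell by edgeR, beside 8.03% and 9.15% of all tested genes. The share that rose, 10%, was thus near that of all genes. At an unadjusted p under 0.05, 4 were higher and 2 lower, beside 17.2% and 17.7%. DESeq2 called 1 higher and 1 lower, beside 10.4% and 11.1%. The median log2 fold change of the list was 0.11. Mafg, a small Maf partner, was the one that rose (0.40, adjusted p 0.0239), and Maff, its relative, had the lowest value with the groups apart (-0.54, adjusted p 0.104). Nfe2l1, which encodes the main factor of these genes, had a value of 0.28 with the groups apart (adjusted p 0.0951). Ddi2, the protease that releases that factor, had -0.30 with all 3 libraries labelled ASO below (adjusted p 0.0518), and Nfe2l2 had -0.10 (adjusted p 0.605).

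Among 10 genes of ubiquitin and its segregase, 2 rose and 0 fell by edgeR, beside 8.03% and 9.15% of all tested genes. At an unadjusted p under 0.05, 4 were higher and 0 lower, beside 17.2% and 17.7%. DESeq2 called 2 higher and 0 lower, beside 10.4% and 11.1%. The median of the list was 0.21. The 2 that rose were Uba1, which activates ubiquitin (log2 fold change 0.35, adjusted p 0.0428), and Nploc4, a cofactor of the segregase (0.38, adjusted p 0.0325). Rps27a, a ubiquitin and ribosomal fusion gene, had the highest value with overlap and a wide error (0.65, SE 0.480, adjusted p 0.388), and Ufd1, another cofactor, had the lowest (0.03, adjusted p 0.808). The value of Rps27a ran from 0.36 to 1.16 when each library was left out.

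The list of antigen processing and interferon response was divided in direction, with 6 positive and 6 negative values. Of its 12 genes 1 rose and 2 fell by edgeR, beside 8.03% and 9.15% of all tested genes. The share that rose, 8.33%, was thus near that of all genes. At an unadjusted p under 0.05, 2 were higher and 3 lower, beside 17.2% and 17.7%. DESeq2 called 2 higher and 2 lower, beside 10.4% and 11.1%. The median log2 fold change of the list was 0.0015. The chaperone gene Canx rose (0.43, adjusted p 0.0234), while Irf1, an interferon-induced factor (-0.74, adjusted p 0.0111), and Tapbpl, a peptide editor (-0.39, adjusted p 0.0158), fell with the groups apart. Calr, a further chaperone gene, had 0.39 with the groups apart (adjusted p 0.0544). Of the others, Tapbp had -0.18 (adjusted p 0.169), B2m 0.11 (adjusted p 0.425) and Nlrc5 0.08 (adjusted p 0.675).

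The chaperonin, another large cytosolic complex of protein handling, was set beside the proteasome. Of its 8 genes 4 rose and 0 fell by edgeR, beside 8.03% and 9.15% of all tested genes. At an unadjusted p under 0.05, 8 were higher and 0 lower, beside 17.2% and 17.7%. DESeq2 called 6 higher and 0 lower, beside 10.4% and 11.1%. The median log2 fold change of the chaperonin genes was 0.39. Cct6a had the highest value (0.54, adjusted p 0.0400), Cct7 (0.50, adjusted p 0.0250), Cct3 (0.48, adjusted p 0.0398) and Cct8 (0.45, adjusted p 0.0330) rose as well, and Cct4 had the lowest value (0.29, adjusted p 0.0767). A median of like size was thus also found outside the proteasome genes.

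The calls in these lists depended on the same libraries as those of the members. Under the replicate block, and without Scramble 1, ASO 1 or ASO 2, edgeR kept no call of the partner, transcription, ubiquitin or chaperonin lists. Without Scramble 2 it kept 1 of the 4 chaperonin calls and none of the other 3 lists, and without Scramble 3 or ASO 3 it kept all of them. Of the 3 antigen processing calls, none were kept without Scramble 1 or ASO 2, 2 without ASO 1 and 1 under the block. Of the 3 regulatory T cell calls, 1 was kept without Scramble 1, ASO 1 or ASO 2, and 2 without Scramble 2 and under the block. The Trac call was lost under the block and in the 6 omissions other than those of Scramble 3 and ASO 3, and the Cd8a call was lost without Scramble 1, without ASO 1 and under the block.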

How the data were processed

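Poly(A) RNA libraries from 6 cultures, 3 of each label, were compared. The authors deposited estimated counts per Ensembl gene, made with kallisto (version not given in the sources used) against the mouse genome, GRCm38 in the submitters' processing notes, as whole numbers that were not normalized. The annotation and the summing of transcripts to genes are not given in those sources. Symbols and coordinates came from GENCODE M21, which held 52073 of the 56748 genes. A gene list entry without a match (Paaf1, Tcf11) was left out.

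The test was that of edgeR 4.0.16 under R 4.3.3: filterByExpr, TMM, robust quasi-likelihood test, two-sided, Benjamini-Hochberg adjustment over all 14936 tested genes, threshold 0.05. SE and 95% intervals were derived from the fold change and its F value. Ratios used counts per kilobase with 0.5 count added. Level per kilobase is CPM divided by the length of the longest-coding transcript. Shared sequence is the share of a transcript covered by 31-base stretches found in another gene. The procedure was tested on simulated data.

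Alternatives were DESeq2 1.42.0, limma-voom 3.58.1, RLE size factors, library size alone, no filter, at least 10 counts in every library, ribosomal and mitochondrial genes left out, counts of sharing genes added, a replicate block, an adjusted p under 0.01, for the ratios a pseudocount of 1, and omission of each library.

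Values in every library were given for the catalytic subunits and their induced counterparts, Psme1 to Psme4, Psmg1 to Psmg4, and in each other role the members with the highest and lowest fold change and the most counts per kilobase. All members past the threshold were named, as were chosen genes and the extremes of each list. The naming of further list genes followed a look at their values. Members and lists were chosen with earlier results of these data known. Counts of genes with groups apart compare the 3 libraries of each label directly. Intervals for counts of 0 cover counting error only.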

Additional observations from a re-analysis of the deposited data

How the results depend on the processing

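The number of members higher by edgeR, 20, was between 19 and 29 with DESeq2, limma-voom, RLE size factors, scaling by library size alone, at least 10 counts in every library, ribosomal and mitochondrial genes left out, or counts of sharing genes added. It was 32 with no filter on low counts, 0 at an adjusted p under 0.01, and from 0 to 33 when each library was left out. The number lower was 0 under every alternative, with 0 members lower at an unadjusted p under 0.05 in each, by DESeq2 and limma-voom too. The median of the members, 0.34, ran from 0.30 to 0.35 under the other settings and from 0.25 to 0.42 when each library was left out. All genes higher numbered 1832 with no filter, 173 at an adjusted p under 0.01, and 160 to 1711 when each library was left out. All genes lower numbered 280 at 0.01, and 231 to 1773 when each library was left out. The cause was not tested.

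With replicate number as a replicate block in edgeR, 0 members were higher, with a lowest adjusted p of 0.0514. At an unadjusted p under 0.05, 32 members were higher, beside 14.3% of all genes. Under the block all genes higher numbered 480 and all genes lower 755 at an adjusted p under 0.05, and the members' median was 0.34. Pearson r between deviations of equally numbered libraries across genes was 0.05, -0.03 and -0.24, so equal numbers did not show pairs.

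When each library was left out, the ratio differences ran from -0.171 to -0.00482 (Psmb8 to Psmb5), from -0.16 to 0.084 (Psmb9 to Psmb6, positive without ASO 1) and from -0.19 to 0.0225 (Psmb10 to Psmb7, positive without Scramble 2). The log2 fold change then ran from -0.0838 to 0.0335 for Psme1 (positive without Scramble 3), from -0.0978 to 0.0641 for Psme2b (positive without Scramble 3, and without ASO 1 at 0.0326), from -0.0444 to 0.00852 for Psme4 (positive without ASO 3), from -0.0382 to 0.0493 for Tap2 (negative without Scramble 2, and at -0.00971 without ASO 1 and -0.00995 without ASO 3) and from -0.0256 to 0.146 for Nlrc5 (negative without Scramble 3, and at -0.00458 without ASO 3). Psme2b was also positive with counts of sharing genes added (0.0886). Library size alone gave -0.00313 for Ufd1 and -0.0272 for Tap2, and Tap2 was at -0.00378 with at least 10 counts in every library and at -0.00358 with counts of sharing genes added. None of these gene values passed the threshold, and the ratios were not tested without a library.

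The lowest count of the 47 tested members was 157, and counting error was not separated from the spread between libraries. Psma8 and Psmb11 were too low to compare. The small number of libraries, the spread within each label, the unsorted cells and the shared sequence of Psmb5, Psma5 and Psme2b limit what the values show, and no batch or date is given in the sources. With counts of sharing genes added, the log2 fold change was 0.51 for Psmb5 (edgeR adjusted p 0.0330) and 0.37 for Psma5 (0.0289). For Psme2b it was 0.09 (0.566).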
